A study of Rattus norvegicus with 12 samples.

Results

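Some RNAs in rat brain crossed the detection limit of the array between normal brain and brain at day 7 after an arterial block. A probe counted as detected on an array when the scanner software flagged its spot as well above background. Of 57102 rclstr probes, 59 (0.103%) were detected on 0 of 4 control arrays and on at least 3 of 4 model arrays and are called gained. Another 237 (0.415%) were detected on 4 of 4 control arrays and on at most 1 of 4 model arrays and are called lost. Each probe is an oligonucleotide of 60 bases, and the array held 60148 probes in all. These probes were chosen by the detection flags of control and model arrays, so their values in those arrays are descriptions, with no test. The BHD arrays played no part in the choice.

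Each of the 3 groups held 4 samples of total RNA, each on its own one-colour array. Control samples were labelled normal brain. Model samples came from rats with embolization of the middle cerebral artery, a vessel that feeds much of a cerebral hemisphere, taken at day 7. BHD samples came from such rats treated with Buyang Huanwu Decoction, which combines several herbs, and were likewise taken at day 7. All rats were labelled male, and the labels used here give no strain, age, dose, hemisphere or sham operation. The tissue field reads brain, while the descriptions of the model and BHD samples and of 2 control samples name hippocampus, and the series text applies the embolization to all groups. The labels speak of biological replicates without naming the animal behind each sample. All p-values therefore reflect only how much these samples vary, which may be technical.

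Blocked blood flow kills neurons, and over the following days microglia and incoming leukocytes gather in the damaged tissue while astrocytes react. An RNA that is scarce in one state can therefore lie below a detection limit there and above it in another. MicroRNAs are cut from hairpins within longer transcripts. The microRNA miR-142 is known from cells of the haematopoietic lineage, which in brain include microglia and infiltrating leukocytes. In RNA from whole tissue, fewer cells of a type and less RNA per cell cannot be told apart.

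The gained probe rclstr_53789_185_16 carries the clearest identity. Its 60 bases lay wholly inside the hairpin of Mir142 on the same strand, by a match to RefSeq sequences of GRCr8. The probe is shown with the bases of the mature arms in capitals, and both mature microRNAs are shown with the seed, bases 2 to 8, in capitals.
rclstr_53789_185_16: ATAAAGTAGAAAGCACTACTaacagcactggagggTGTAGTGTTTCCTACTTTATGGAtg
rno-miR-142-5p: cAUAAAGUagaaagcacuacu
rno-miR-142-3p: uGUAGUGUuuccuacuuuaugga

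The remaining sequences are those of probes whose signals carry the other patterns and whose gene no table used here names. The next 3 lines are gained probes, the first with the highest bound on its gain, the second detected on all BHD arrays and the third on no BHD array.
rclstr_30170_625_11: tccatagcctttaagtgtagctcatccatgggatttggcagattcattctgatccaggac
rclstr_62132_87_15: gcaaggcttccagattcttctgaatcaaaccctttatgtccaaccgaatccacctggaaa
rclstr_20053_783_6: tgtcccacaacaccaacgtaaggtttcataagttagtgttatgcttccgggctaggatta

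The next 3 lines are lost probes, the first detected again on all BHD arrays, the second on none and the third on 1.
rclstr_42850_435_13: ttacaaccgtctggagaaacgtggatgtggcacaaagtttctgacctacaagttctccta
rclstr_54960_365_11: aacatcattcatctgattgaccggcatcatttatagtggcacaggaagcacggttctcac
rclstr_27469_574_10: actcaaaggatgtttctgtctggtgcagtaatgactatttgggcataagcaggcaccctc

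The last pair is a lost probe and a probe that is not a member and reads the opposite strand. Capitals mark the 51 bases over which each is the reverse complement of the other.
rclstr_34404_701_14: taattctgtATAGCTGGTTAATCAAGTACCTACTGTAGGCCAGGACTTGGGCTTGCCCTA
rclstr_33768_686_12: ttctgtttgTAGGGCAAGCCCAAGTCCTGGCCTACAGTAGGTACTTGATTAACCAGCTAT

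Several facts of the arrays bear on all values below. Slide 1 carried the control arrays on its row 1 and the model arrays on its row 2. The BHD arrays sat on row 1 of slide 2. Between control and model, group and row cannot be told apart, while the slide was the same. Between control and BHD, group and slide cannot be told apart, while the row was the same. Model and BHD differed in both row and slide. A contrast of model with both other groups is thus also one of row 2 with row 1. The share of all probes detected ran from 73.18% to 77.26% over the 12 arrays. The lowest signal that was well above background ran from 7.32 to 9.48 units. It was 8.07, 7.83, 7.34 and 7.90 units on control replicates 1 to 4 and 8.75, 9.48, 7.58 and 8.13 on model replicates 1 to 4. On BHD replicates 1 to 4 it was 8.01, 7.32, 8.10 and 8.31 units. The same signal can therefore count as detected on one array and not on another. Counts under 1 common limit for all arrays are given further below. Over rclstr probes that are not members, the detected share was 75.7% ± 0.497 (SD, n = 4) for control, 74.7% ± 1.81 for model and 74.1% ± 1.60 for BHD. Two-sided exact permutation tests gave p = 0.4286 for model against control, 0.1143 for BHD against control and 0.5714 for BHD against model (0.5714, 0.3429 and 0.5714 adjusted over the 3), where 0.0286 is the smallest possible. Among BHD arrays, replicate 2 detected the fewest gained probes, 22 of 59, and the most lost probes, 166 of 237, beside 27 gained on replicate 3 and 154 lost on replicate 1.

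The Mir142 probe was gained in all 4 model samples and stayed detected in all 4 BHD samples. It lay at chr10:73055120-73055179 on the plus strand of GRCr8. The hairpin itself spanned chr10:73055104-73055190, within the annotated span of Tspoap1 (chr10:73053414-73083640). The probe held 20 of the 21 bases of miR-142-5p and all 23 bases of miR-142-3p. Since it covers both arms and the loop between them, it can pair with longer RNA from the locus, and its signal is no measure of the mature microRNAs.

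Its processed signal was 4.44, 2.83, 3.74 and 3.33 units on the control arrays, 16.4, 13.4, 17.3 and 12.3 on the model arrays and 31.3, 18.4, 15.6 and 25.0 on the BHD arrays. Every model and BHD array lay above every control array, and model and BHD arrays overlapped. The signal was at least 1.85-fold higher in model and at least 2.77-fold higher in BHD than in control. Such a bound divides the bright group's mean by the dim group's mean, with each dim value raised to the array's lowest detected signal where it lies under it. It is approximate because the limit differs between probes. Control arrays lie below detection and were used by the rule, so no test against control is given. BHD minus model was 0.59 ± 0.20 (SE) on the log2 scale and was not called (limma, adjusted p = 0.148), a description since the rule used the model arrays.

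Of 9 probes that share at least 20 bases with a miRNA hairpin on the same strand, 6 were detected on all 12 arrays, 2 on none, and 1, the Mir142 probe, is a member. Among the 6 is the probe for Mir22, a microRNA broadly expressed across tissues. Its level, a log2 signal minus that array's 75th percentile, was -0.31 ± 0.08 (SD, n = 4) on control arrays. It was 0.01 ± 0.26 on model arrays and 0.28 ± 0.06 on BHD arrays. The probes for Mir10b and Mir3543 were the 2 detected on none.

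The other gained probes without a named gene differed in how BHD samples read them. The probe rclstr_30170_625_11 gave 3.36, 2.44, 2.37 and 1.65 units in control, 12.4, 29.8, 21.6 and 120.0 in model and 85.7, 2.81, 31.0 and 74.4 in BHD. Its model arrays all lay above its control arrays, model replicate 4 was the brightest, and BHD replicate 2 alone among BHD arrays stayed at the control level. It was at least 3.93-fold higher in model than in control, the highest bound among gained probes.

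The probe rclstr_62132_87_15 gave 1.72, 5.0, 4.75 and 5.13 units in control, 32.6, 13.4, 19.2 and 30.6 in model and 34, 16.9, 8.78 and 38.5 in BHD. No control array overlapped the other groups, whereas BHD and model overlapped. The bounds were at least 2.83-fold for model and at least 2.68-fold for BHD, both over control.

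Other gained probes were seen in the model alone or nearly so. The probe rclstr_20053_783_6 gave 2.99, 6.93, 4.25 and 6.73 units in control, 10.7, 10.1, 12.5 and 9.33 in model and 5.36, 5.91, 4.28 and 4.95 in BHD. The model arrays lay above all others, and BHD arrays lay within the control range. It was at least 1.34-fold higher in model than in BHD. The rule used the model arrays and the probe was named for its missing BHD detection, so this difference is a description.

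The probe rclstr_16254_1746_8 was detected on no BHD array either, at 8.06, 7.48, 5.80 and 4.25 units there against 8.92, 9.83, 13.9 and 11.3 in model and 5.05, 2.89, 6.57 and 4.21 in control. Its model arrays lay above its BHD arrays by under 1 unit at the nearest, and its BHD arrays overlapped control. The probe rclstr_50951_233_10 gave 37.2, 13.0, 25.5 and 17.1 units in model, 1.72, 3.28, 1.58 and 1.73 in control and 5.81, 7.53, 1.75 and 39.2 in BHD. Only BHD replicate 4 detected it, at a signal above every model array.

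The lost probes include RNAs that were again detected in all BHD samples. The probe rclstr_42850_435_13 gave 30.8, 22, 16.2 and 18.5 units in control, 5.18, 4.04, 5.77 and 2.48 in model and 15.1, 16.6, 19.9 and 23.9 in BHD. Model arrays lay below all others, and control and BHD arrays overlapped. The probe rclstr_905_1049_5 gave 14, 20.4, 23.3 and 19.7 units in control, 6.83, 5.27, 7.61 and 6.59 in model and 13.1, 19.9, 9.86 and 12.2 in BHD, again with the model arrays lowest. The probe rclstr_32822_258_16 had 9.81 to 15.7 units in control, 5.06 to 6.86 in model and 9.38 to 14.2 in BHD. BHD was at least 2.23-fold, 1.59-fold and 1.34-fold above model for these probes in that order. These probes were chosen for being undetected in model and detected in BHD, so the direction was fixed by the choice and no test is given.

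Other lost probes were detected on at most 1 BHD array. The probe rclstr_54960_365_11 gave 12.7, 11, 9.14 and 9.86 units in control, 7.28, 6.01, 4.95 and 7.02 in model and 6.02, 5.90, 4.64 and 5.79 in BHD. Control arrays lay above all others. Control was at least 1.28-fold above model and at least 1.36-fold above BHD. The probe rclstr_38577_459_14 had 9.97 to 18.8 units in control, 5.44 to 7.96 in model and 2.35 to 8.59 in BHD. The probe rclstr_17707_1272_11 had 10.1 to 13.7 units in control, 4.04 to 8.03 in model and 3.37 to 9.30 in BHD, with only BHD replicate 1 detected.

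The lost probe rclstr_27469_574_10 had the widest gap between its lowest control array and its highest model array among lost probes detected on 1 model array. It gave 106, 107, 66.8 and 85.3 units in control, 13.4, 4.52, 7.94 and 4.48 in model and 4.24, 8.11, 5.17 and 6.97 in BHD. The lowest control array lay well above the highest of the other 8, and 1 model and 1 BHD array detected the probe. The control arrays were used by the rule and most BHD values lie below detection, so no fold or test is given.

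Haemoglobin probes, a marker of red blood cells, were lower in the same direction. They are no members, since every array detected them. They were looked for because a red blood cell list of globin genes and Alas2 was fixed among the marker lists. The globin symbols searched were widened to those named below, and no probe matched Alas2. The probe for alpha-globin (Hba-a1, Hba-a2 and Hba-a3) gave 7614, 6572, 4437 and 5826 units in control, 1246, 83.34, 495.9 and 154.6 in model and 251, 406.4, 203.1 and 1036 in BHD. The probe for beta-globin (Hbb-b1, Hbb-b2 and Hbb-bs) gave 867.5 to 1828 units in control, 34.97 to 289.5 in model and 78.22 to 358.5 in BHD. No model or BHD array reached the lowest control array in either probe. The mean level of both differed by -4.01 on the log2 scale between model and control and by -3.52 between BHD and control. Each had p = 0.0286 (two-sided exact permutation test, the smallest possible with 4 against 4, 0.0429 adjusted over 3 comparisons), and all 4 arrays of each group lay below all control arrays. In the fit over all probes, neither globin probe was called between model and control (limma, adjusted p = 0.0672 and 0.0629). Both were called lower in BHD than in control in that fit (limma, adjusted p = 0.00935 and 0.0124). Model replicate 1 was the highest model array for both globin probes and for rclstr_27469_574_10. Among BHD arrays, both globin probes were highest on replicate 4 (1036 and 358.5 units) and rclstr_27469_574_10 on replicate 2 (8.11 units). The part of blood content in the lost group was not tested. The other fixed marker lists (microglia, astrocytes, neurons, oligodendrocytes, endothelium, choroid plexus) had 0 probes that could be matched by sequence, so the labelled tissue could not be checked against its markers.

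A few lost probes were bright in some control samples only, and they were chosen here after their values were seen. The probe rclstr_60015_30_10 gave 1480, 1430, 783 and 15.5 units in control, 8.47, 1.96, 69.8 and 4.80 in model and 45.3, 1.59, 27.6 and 1.86 in BHD. Control replicate 4 lay below model replicate 3, so control and model overlap. The probe rclstr_16604_2197_10 gave 478, 881, 65.5 and 14.5 units in control, 21.9, 5.89, 7.99 and 3.07 in model and 5.98, 6.90, 7.37 and 7.42 in BHD, and control replicate 4 was again the lowest control array. The mean alone, 927 and 360 units in control, hides this spread.

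Where a lost probe reads the strand opposite a bright RNA, the values of both strands are set side by side. The probe rclstr_34404_701_14 gave 12, 8.94, 11.6 and 10.5 units in control, 4.88, 6.18, 6.34 and 5.38 in model and 7.07, 7.87, 8.87 and 8.20 in BHD. Model arrays were the lowest. In these unscaled units no group overlapped another, but control replicate 2 (8.94) and BHD replicate 3 (8.87) nearly touched. Scaling by their 75th percentiles (412.7 and 408.7 units) does not keep that gap. Its partner rclstr_33768_686_12 gave 580, 557, 569 and 563 units in control, 628, 525, 554 and 561 in model and 598, 562, 521 and 527 in BHD. The groups of the partner overlapped throughout. The pair was chosen for its shared bases.

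Another lost probe has a same-strand neighbour on the array. The probe rclstr_33669_440_8 shared 49 bases with rclstr_55074_63_1002, so both can report the same RNA. The member gave 11 to 19.7 units in control, 4.51 to 10.6 in model and 1.73 to 19.7 in BHD. The neighbour gave 5.73 to 8.52, 2.15 to 7.98 and 1.56 to 8.79 units in that order and was detected on 1, 0 and 1 arrays. For both, BHD replicate 1 was the brightest BHD array, and model and BHD arrays overlapped. In all, 7 members (2 gained, 5 lost) shared at least 20 bases with another probe on either strand, and none shared such a run with another member.

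Start-site sequences from RefSeq (GRCr8) named few members, since they cover only 250 bases before to 50 after each start. With the Mir142 probe, 8 members (1 gained, 7 lost) shared at least 20 bases with such a window or with a hairpin. The lost probe rclstr_7323_2178_4 matched whole at chr9:53538704-53538763 on the plus strand, upstream of the annotated span of Tpp2, which encodes a peptidase acting after the proteasome. It gave 8.12 to 14.8 units in control, 7.96 to 10.3 in model and 7.47 to 11.4 in BHD, so its groups overlapped although its detection changed. The lost probe rclstr_3497_1349_12 matched whole at chr1:64616135-64616194 on the minus strand, across an annotated start of Wdr27, which encodes a WD repeat protein. It gave 12.6 to 20.1 units in control, 7.69 to 9.06 in model and 5.30 to 15.2 in BHD, with control above model and BHD overlapping both. The lost probe rclstr_58429_27_10 matched wholly upstream of the annotated span of LOC102548193, a long noncoding RNA. It gave 10.2 to 12.2 units in control, 8.25 to 10.7 in model and 8.15 to 14.5 in BHD, so its groups overlapped. The lost probe rclstr_48501_124_9 matched whole across the annotated start of LOC134487074. It also shared at least 20 bases with the windows of LOC120103159, LOC120103160 and LOC120103162. Both of these lost probes were detected on 3 BHD arrays.

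Most members were dim on both sides of the limit. The mean model signal of gained probes ran from 7.95 to 48.1 units with a median of 12.3, and 46 of 59 (78.0%) lay under 20. Their control means had a median of 4.64 units and their BHD means one of 10.6. The mean control signal of lost probes had a median of 12.5 units, and 221 of 237 (93.2%) lay under 20. Their model means had a median of 7.67 units and their BHD means one of 8.81. Detection and level are not the same: 34 of 59 gained probes had a signal significantly above zero on all 4 control arrays, and 227 of 237 lost probes on all 4 model arrays. With that weaker flag in place of the detection flag the rule gave 75 gained and 192 lost probes, of which only 2 and 0 are among the members.

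All model levels lay above all control levels for 44 of 59 gained probes, and below them for 105 of 237 lost probes, where 5.41% and 4.48% of all rclstr probes do so. The rule used this contrast, so nothing is read from these counts. Just inside and just outside the threshold the values were as follows. The gained probe rclstr_34376_473_6, detected on 3 model arrays, gave 1.89, 10.5, 35.3 and 21.3 units there. The probe rclstr_13634_2357_8, detected on 2, gave 2.98, 2.59, 10.2 and 24.6. On the lost side, rclstr_27469_574_10 lay just inside. The probe rclstr_59487_289_7, with 2 model arrays detected and thus outside, gave 30.4 to 46.6 units in control and 6.10 to 16.5 in model.

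BHD arrays detected many gained probes. Of the 59, 14 were detected on 0 BHD arrays, 7 on 1, 10 on 2, 20 on 3 and 8 on 4. That makes 28 (47.5%) on at least 3. Among rclstr probes outside the rule, also detected on 0 control arrays, the share on at least 3 BHD arrays was 20% for those with 2 model arrays, 4.46% with 1 and 0.105% with 0, or 0.736% over all of these. The share thus followed the number of model arrays that detected a probe: it was 38.5% of the 39 gained probes with 3 model arrays and 65.0% of the 20 with 4. With BHD replicate 1, 2, 3 or 4 left out, 30, 33, 36 and 33 of the 59 were detected on at least 2 of the other 3 arrays. By array, 38, 22, 27 and 32 gained probes were detected on BHD replicates 1 to 4, against 47, 44, 53 and 53 on model replicates 1 to 4.

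BHD arrays detected lost probes unevenly. Of the 237, 23 were detected on 0 BHD arrays, 56 on 1, 70 on 2, 63 on 3 and 25 on 4, which makes 88 (37.1%) on at least 3. Outside the rule, among rclstr probes detected on all 4 control arrays, that share was 55.1% with 2 model arrays, 73.4% with 3 and 99.3% with 4, or 98.4% over all of these. It was 40.7% of the 177 lost probes with 1 model array and 26.7% of the 60 with 0. By array the counts were 154, 166, 71 and 94 on BHD replicates 1 to 4, so replicates 1 and 2 detected more lost probes than replicates 3 and 4. On at least 2 of the 3 arrays that remain, the count was 103, 108, 146 and 135 without BHD replicates 1, 2, 3 and 4. On model replicates 1 to 4 they were 43, 11, 55 and 68.

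In levels, the BHD mean of gained probes lay above control in 46 of 59 and below model in 47. The median difference from control was 0.91 and from model -0.34 on the log2 scale. All BHD arrays lay above all control arrays for 16 of 59, against 5.91% of all rclstr probes. The BHD mean of lost probes lay below control in 211 of 237 and above model in 168, with median differences of -0.62 and 0.22. All BHD arrays lay below all control arrays for 59 of 237, against 8.92% of all rclstr probes. The control arrays and the model arrays that enter these comparisons were used by the rule. Gained probes were chosen for detection in model and lost probes for its absence there. BHD means that lie from model toward control can therefore follow from the choice alone, as can those that lie from control toward model. No share of all rclstr probes is set beside the counts of means. How much of these differences follows from the choice was not tested.

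In the limma fit, 44719 probes were tested because they were detected on every array of at least 1 group. Only 21 of 59 gained probes passed that filter, and all 237 lost probes passed it by the rule itself. Between model and control 0.047% of tested probes were called at an adjusted p under 0.05, 0.0224% higher and 0.0246% lower. That is 21 probes, and the number depends on the scaling: with each array centred on E1A spike-in probes 2243 were called. Among the 21 called with percentile scaling were rclstr_53789_185_16 of the gained and 4 lost probes (rclstr_27469_574_10, rclstr_42850_435_13, rclstr_905_1049_5 and rclstr_34404_701_14). The rule used this contrast.

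Between BHD and model 3.19% of tested probes were called, 0.691% higher and 2.5% lower. The 2 gained probes called, rclstr_20053_783_6 and rclstr_17037_579_4, were both lower with BHD and both undetected on all BHD arrays. Of the lost probes 11 were called higher and 1 lower, the last being rclstr_46553_316_16. Of the 11, all but rclstr_34404_701_14 were detected on all 4 BHD arrays. With no filter on dim probes, where all 59 gained probes were tested, 1.56% of probes were called (0.313% higher, 1.25% lower), with 2 gained probes lower and 6 lost probes higher. The count of 12 lost calls fell to between 4 and 7 without control replicate 3 or 4, model replicate 1, 2 or 3, or BHD replicate 1. The gained count was 0 without BHD replicate 1 or 3 and 1 without any control array, without model replicate 1, 3 or 4, or without BHD replicate 2. Over all probes, 1187, 1193, 1186 and 1253 were called without control replicates 1 to 4. Without model replicates 1 to 4 these totals were 719, 877, 936 and 858. Without BHD replicates 1 to 4 they were 697, 1279, 756 and 1475, against 1428 in the main fit.

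Between BHD and control 10.7% of tested probes were called, 3.85% higher and 6.88% lower. All 8 gained probes called were higher and all 38 lost probes called were lower with BHD. With no filter 5.64% of probes were called (1.89% higher, 3.75% lower), with 7 gained probes higher and 21 lost probes lower. Without BHD replicate 2 the gained count was 15. It was 4 without control replicate 2, 3 or 4 and 5 without BHD replicate 1 or 4. The lost count lay between 19 and 24 without any 1 control array or without BHD replicate 1 or 3. Over all probes, 3455, 2750, 2387 and 2674 were called without control replicates 1 to 4. Without BHD replicates 1 to 4 these totals were 2554, 5893, 2472 and 3583, against 4800 in the main fit. Both comparisons share arrays with the rule, so their counts are set beside the shares of all tested probes and support nothing further.

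The same rule applied to other pairs of groups gave probes as well. From model to BHD 79 rclstr probes were gained and 171 lost, and from control to BHD 112 were gained and 345 lost. Leaving out 1 control or model array loosens the rule, which then asks for 3 uniform control arrays or allows 1 exception among 3 model arrays. It gave 218, 207, 99 and 112 gained probes without model replicates 1, 2, 3 and 4, and 120, 121 and 91 without control replicates 1, 2 and 3. It gave 382, 491 and 463 lost probes without model replicates 1, 3 and 4, and 395 and 368 without control replicates 1 and 4. Of the 3046 probes named after CIRCpedia, a circular RNA database, 0 were gained and 7 were lost between control and model.

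Base composition set members little apart. The median GC content was 45.0% in gained and in lost probes and 46.7% in all rclstr probes, all of which lay between 40.0% and 46.7%. The polyadenylation motif AATAAA, searched on the probe strand, stood in 0 of 59 gained and 7 of 237 lost probes (2.95%), against 1.77% of all rclstr probes. Its reverse complement TTTATT stood in 1 gained and 6 lost probes (1.69% and 2.53%), against 1.73%.

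Lost probes were not spread evenly over the array. Of the 237, 98 (41.4%) lay in grid rows 289 to 384, which held 24.9% of rclstr probes. Rows 1 to 96 held 45 lost probes, rows 97 to 192 held 40 and rows 193 to 288 held 54. Gained probes numbered 17, 19, 10 and 13 over the same blocks of rows from the top. In rows 289 to 384 the detected share of other rclstr probes was 76.7% ± 0.41 (SD, n = 4) on control arrays and 74.6% ± 1.56 on model arrays, a gap of 2.14 percentage points. The gap was 0.42, 0.12 and 1.1 points in the blocks above. The share of lost probes detected on at least 3 BHD arrays was 27.6% in rows 289 to 384 and 48.9%, 42.5% and 40.7% in the blocks above. The part of grid position in the lost count was not tested. The lost probes rclstr_42850_435_13, rclstr_17707_1272_11, rclstr_27469_574_10, rclstr_60015_30_10, rclstr_7323_2178_4 and rclstr_48501_124_9 lay in rows 289 to 384, as did the gained probes rclstr_30170_625_11, rclstr_62132_87_15 and rclstr_20053_783_6.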

How the data were processed

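Scanner files of 12 one-colour Agilent arrays were read. The submitters' processing notes name Agilent Feature Extraction 10.7.1.1. Per the file headers, they hold processed intensity with background and spatial trend already subtracted, besides mean and local background intensity and 0 or 1 flags per spot for signal well above background, for positive and significant signal and for outliers. The authors' deposited table gives these arrays as log2 values. It correlated at r of 0.9994 to 1.0 with the scanner values, and every column had a median of 6.134. Its normalization is not given in the sources used here, and it served as an alternative. The headers name build rn4 but map no probe to it. Positions therefore come from sequence matches to RefSeq tables of GRCr8, which hold start-site windows and microRNA hairpins only.

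A probe was detected on an array when its spot was flagged as well above background, and 1 member has more than 1 spot. Outlier spots (55 to 112 per array) were left out of levels. Levels are log2 of the processed signal minus each array's 75th percentile (396.8 to 451.9 units), with spots of a probe averaged. The number of arrays limits the precision. Probes detected on every array of at least 1 group were fitted with limma 3.58.1 in R 4.3.3, 1 mean per group over all 12 arrays, with Benjamini-Hochberg adjustment and calls at an adjusted p under 0.05. The fit was also run on simulated normal values with known changes. These values had no detection limit, so they do not show how calls fare for probes near it. Single values per array were compared with exact permutation tests.

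Members and lists were chosen with earlier results of these data known. Probes named are the first 3 complete switches detected on 3 or 4 BHD arrays and the first 3 detected on 0 or 1, by the gap between control and model levels, for gained and lost apart, and the first just inside and outside the threshold. Probes with a sequence match and 2 bright ones were added after their values were seen, as were called members named by their count. Haemoglobin probes were found by their match to the first 50 transcript bases. Alternatives were other detection flags and limits, quantile normalization, normexp with an offset of 50, the deposited table, no filter, a replicate block, the groups compared alone, E1A spike-in centring and leaving out each array.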

Additional observations from a re-analysis of the deposited data

Results flagged for a closer look

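Of 52 sets of 4 arrays tested for a single distant value, 2 were singled out, where chance singles out about 1 in 20. The probe rclstr_62132_87_15 had a level of -7.95 (log2 relative to the array's 75th percentile) in control replicate 1, apart from the other 3 control arrays. The probe rclstr_50951_233_10 had a level of -6.97 in control replicate 2, above the other 3 control arrays. Both values lie below the detection limit of their arrays.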

How the results depend on the processing

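Detection depends on the flag and the limit. Under 1 common limit on the scaled level for all arrays, 100 gained (50 of them shared with the main rule) and 165 lost probes (139 shared) were found, and 53 of the lost were detected on at least 3 BHD arrays. With the positive-and-significant flag 17 gained probes were detected on at least 3 BHD arrays. With complete switches only, 20 gained and 60 lost probes remained, 13 and 16 of them on at least 3 BHD arrays. Leaving out each array in turn gave 59 to 218 gained and 237 to 491 lost probes, with 30 to 60 and 98 to 229 of them detected on at least 3 BHD arrays (at least 2 where a BHD array was left out). It gave 697 to 1475 probes called between BHD and model and 2387 to 5893 between BHD and control. Among gained members 0 to 2 and 4 to 15 were called, and among lost members 4 to 16 and 19 to 51, in the same order.

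Between BHD and model, gained members called numbered 0 with quantile normalization, normexp and the deposited table and 1 with the groups alone. The totals over all probes were 1202, 1192, 1198 and 954 in that order, against 1428 in the main fit. Lost members called numbered 1 with normexp, 6 with no filter and 5 with the groups alone, and the fit with no filter called 940 probes in all. Between BHD and control, normexp called 3 gained and 12 lost members. It called 4753 probes in all, against 4800 in the main fit. Quantile normalization, the deposited table and no filter each called 21 lost members. These fits called 4715, 4706 and 3393 probes in all, in that order. Normexp adds 50 units to every signal and so shrinks differences of dim probes. For other changes the cause was not tested. Of the alternative values for single named probes, 489 kept their status as called or not called, 64 lost a call, 9 gained one and 0 reversed. The 489 include comparisons called in neither fit, so they do not measure how stable the calls are.

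Same-numbered arrays of different groups had deviations that correlated at -0.194 to 0.244, and 4 of 12 arrays correlated best with one of their own number. The labels name no pairing beyond the number, and these correlations cannot exclude one. With the replicate block 0 gained and 6 lost members were called between BHD and model, and 8 and 31 between BHD and control. That fit called 1019 and 3469 probes in all for these comparisons. Centring on E1A spike-in probes, chosen after seeing the data, gave a median difference over all tested probes of 0.18 between model and control, -0.09 between BHD and model and 0.07 between BHD and control, against 0, -0.02 and -0.03 with percentile scaling. It called 2243 probes between model and control against 21. It called 2 gained and 11 lost members between BHD and model, and 9 and 26 between BHD and control. Its totals over all probes were 1982 and 4145 in the same order. Signals near the limit, 7.32 to 9.48 units, set how well a change of detection can be told from a small change of level.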

Other observations

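By detection on all or none of the arrays of a group, 7 gained probes, the Mir142 probe among them, were detected on all 4 model and all 4 BHD arrays and 4 on the model arrays alone. On the lost side, 6 probes were detected on all control and all BHD arrays and on no model array, and 10 on control arrays alone.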
